A study of Callithrix jacchus with 54 samples.

Results

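The genes described here are the motile cilia genes of the common marmoset together with their transcriptional regulator FOXJ1. They were taken by symbol, from the families DNAH, DNAI, DNAL, DNAAF, RSPH, CFAP and TEKT (each followed by a digit), with FOXJ1, AKAP14, CCDC39, CCDC40, RFX2 and RFX3 added by name. The rule used no measured value, and it found 66 of the 14812 genes that the deposited table lists as shared between marmoset and human. Expression was given as TPM (a length-corrected share of the RNA of a library, so that levels can be compared between genes) in 54 poly(A) RNA-seq libraries, 2 biological replicates in each of 27 conditions. The values of the genes listed summed to between 790300 and 839203 TPM in a library, and between 10146 and 12688 genes were above 0. Read depth is unknown from TPM.

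All libraries came from the embryonic stem cell line CMES40 (cjESCs) and carried the reporters BLIMP1-tdTomato and NANOS3-eGFP, which mark the germ cell lineage. The study asked how cjESCs turn into primordial germ cell-like cells (PGCLCs). One set used a transgenic derivative (rtTA; tetO-BLIMP1; SOX17-GR; DD-TFAP2C) kept in the medium DK20FA. Its cells were sampled as cjESCs and at 12, 24, 48 and 96 h in BLSE (BMP4, LIF, SCF and EGF), in SOX17 + BLSE (SOX17 switched on with dexamethasone) and in SOX17 + LSE (the same without BMP4). The other set carried no transgene and was kept in the medium PESFA. It was sampled as cjESCs, after pre-treatment with the WNT agonist IM12 and activin A for 24 h, and at 12, 24, 48 and 96 h in BLSE + IWR1 (IWR1 inhibits WNT signaling) and in BLSE + IWR1 + BMS (BMS493 is an inverse agonist of retinoic acid receptors). PGCLCs of BLSE + IWR1 were taken on day 6, and on days 20, 40 and 70 after they were aggregated with mouse fetal gonadal somatic cells into xenogeneic reconstituted ovaries (xrOvaries).

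The induction media also held a ROCK inhibitor, and cjESCs grew on mouse feeder cells. cjESCs and pre-treated cells were sorted for TRA-1-60. Cells at 12, 24 and 48 h, and BLSE at 96 h, were not sorted. Where they are set against cjESCs or pre-treated cells, culture and sorting cannot be told apart. The other libraries from 96 h onwards were sorted for tdTomato, so time and sorting cannot be told apart there. In the label of SOX17 + LSE at 96 h these sorted cells are called differentiated cells. The transgenic set is 1 derivative of 1 line, and PESFA against DK20FA also compares the line without transgenes with the transgenic one. Dexamethasone was added only where SOX17 was switched on, so in SOX17 + BLSE against BLSE the drug and SOX17 cannot be told apart.

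A motile cilium is built around an axoneme of microtubule doublets. Dynein arms (heavy chains of the DNAH family, intermediate and light chains of the DNAI and DNAL families) drive the beat after DNAAF proteins have assembled them in the cytoplasm. Radial spokes (RSPH), the ruler proteins CCDC39 and CCDC40, tektins (TEKT) and many CFAP proteins space, brace and line the doublets. FOXJ1 is the forkhead factor that turns on this gene set in multiciliated and nodal cells, and RFX factors act with it. AKAP14 anchors protein kinase A in cilia.

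Many of these genes were hardly expressed in any library. Of the 66, 43 reached log2(TPM + 1) of 1.5 in at least 1 library and entered the test, beside 11197 of all 14812 genes. These were 19 of 29 CFAP, 4 of 5 DNAAF, 3 of 10 DNAH, 2 of 4 DNAI, both DNAL, 4 of 6 RSPH and all 4 TEKT genes, with FOXJ1, AKAP14, CCDC39, CCDC40 and RFX2. The other 23 never exceeded 1.66 TPM. The 7 DNAH genes among them stayed at or below 0.59 TPM, the outer arm intermediate chains DNAI1 and DNAI2 at or below 0.55 and 0.95 TPM, and RFX3 at or below 0.46 TPM. So the label of a motile cilia program was borne out in part only: FOXJ1 reached 288.77 TPM, whereas 7 of the 10 dynein heavy chain genes and 2 of the 4 intermediate chain genes lay near 0 in every condition.

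Genes that mark the multiciliated state were in part near 0 as well. Of 15 listed regulators of multiciliated cells with values here, 10 passed the filter, and of 45 further motile cilia genes 25 did. Of all 14812 genes 11197 passed it. MYB, a factor of early multiciliogenesis, reached 29.14 TPM, FOXN4 8.03 TPM, the central pair gene SPAG6 156.06 TPM and TPPP3 348.58 TPM. MCIDAS and GMNC, the coregulators that switch on multiciliogenesis, did not exceed 0.44 and 0.2 TPM in any of the 54 libraries. The central pair gene HYDIN did not exceed 0.1 TPM. CFAP20 and DNAAF2 were the highest members by mean log2 level over the 54 libraries: CFAP20 ranged from 90.66 to 293.13 TPM and DNAAF2 from 33.8 to 116.32 TPM. In cjESCs in DK20FA 32 of the 66 members averaged at least 1 TPM and 13 at least 10 TPM, against 19 and 7 in BLSE at 96 h.

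FOXJ1 was highest in undifferentiated cells. It measured 288.77 and 219.13 TPM in cjESCs in DK20FA, 206.28 and 179.97 TPM in cjESCs in PESFA, and 228.01 and 248.62 TPM after pre-treatment. From day 6 to day 70 it lay between 0 and 2.55 TPM. FOXJ1 exceeded 100 TPM in 11 of the 54 libraries, all of them cjESCs, pre-treated cells or cells within 24 h of BLSE + IWR1 or BLSE + IWR1 + BMS. With the 27 conditions placed in order of their mean, 19 of the 26 pairs of neighbours had overlapping replicates. The 7 steps without overlap included pre-treated cells above cjESCs in PESFA, cjESCs in PESFA above BLSE + IWR1 at 12 h, and SOX17 + LSE at 48 h above SOX17 + BLSE at 24 h.

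**Figure D1:**
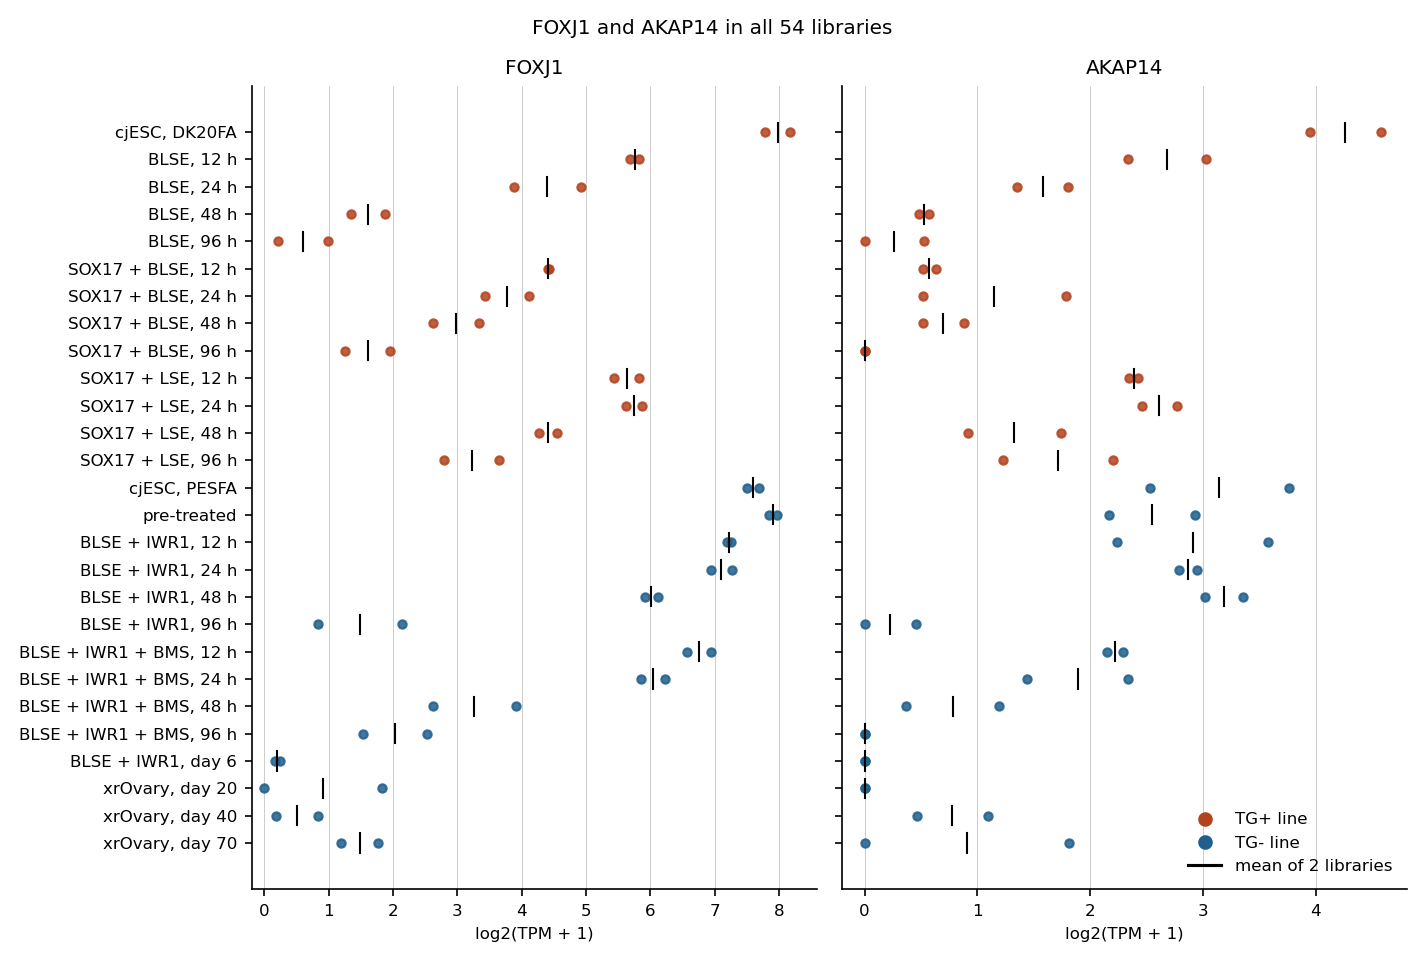
FOXJ1 (left) and AKAP14 (right) as log2(TPM + 1) in all 54 libraries, 1 row per condition and 1 point per library. FOXJ1 runs from 288.77 TPM in a cjESC library in DK20FA to 0 in a day 20 library, and AKAP14 from 22.9 TPM to 0.

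The first comparisons ask what happened to cilia genes when cjESCs were placed in BLSE without SOX17. FOXJ1 had fallen by the first time point and went on falling. It was 50.64 and 55.95 TPM at 12 h, 13.69 and 29.39 TPM at 24 h, 2.65 and 1.55 TPM at 48 h, and 0.16 and 0.98 TPM at 96 h. No replicate overlapped the cjESCs in DK20FA at any time. The log2 fold change against cjESCs, on the log2(TPM + 1) scale throughout, was −2.22 (SE 0.45, adjusted p = 0.000591, limma with Benjamini-Hochberg adjustment over 11197 genes) at 12 h and −7.38 (SE 0.45, adjusted p = 4.94e-16) at 96 h. In bulk RNA, fewer FOXJ1-expressing cells and less FOXJ1 RNA per cell cannot be told apart.

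Structural genes fell with FOXJ1. AKAP14 went from 14.39 and 22.9 TPM in cjESCs to 0.44 and 0 TPM at 96 h (−4.00, SE 0.47, adjusted p = 8.89e-09). CFAP126, the microtubule inner protein also known as Flattop, went from 37.7 and 54.51 TPM to 7.49 and 7.87 TPM at 12 h (−2.42, SE 0.55, adjusted p = 0.00223) and was listed at 0 in both libraries at 96 h. CFAP44, which tethers an inner dynein arm, went from 12.87 and 13.93 TPM to 0.78 and 0.86 TPM at 48 h (−2.98, SE 0.25, adjusted p = 4.86e-12). In each of these genes both treated libraries were below both cjESC libraries. The tektin gene TEKT1 measured 8.09 and 10.98 TPM in cjESCs and 1.9 and 2.1 TPM at 12 h (−1.80, SE 0.34, adjusted p = 0.000212), and CFAP73, of a complex that regulates inner dynein arms, 14.67 and 9.28 TPM against 1.35 and 1.15 TPM (−2.50, SE 0.31, adjusted p = 2.63e-07). AKAP14 at 12 h (7.15 and 4.06 TPM, −1.58, SE 0.47, adjusted p = 0.0204) did not hold without replicate 2 of BLSE 12 h (−1.23, adjusted p = 0.245) or replicate 2 of the cjESCs (−1.26, adjusted p = 0.168). With a pseudocount of 0.1 in place of 1 the 12 h calls of FOXJ1 (adjusted p = 0.0702), CFAP126 (0.119), AKAP14 (0.259) and TEKT1 (0.0654) were lost, and CFAP73 kept its call.

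In the BLSE course, all member calls were falls. Of the 43 members tested, 17 fell at 12 h, 18 at 24 h, 19 at 48 h and 23 at 96 h, and 0 rose. Of all 11197 genes, 6.84%, 10.8%, 14.8% and 23.0% fell at those times, and 7.26%, 8.66%, 13.9% and 16.2% rose. At 12 h 9 were called without replicate 2 of BLSE 12 h, and 9 without replicate 2 of the cjESCs. A member that passed the filter only through cjESC libraries could hardly be called higher in this course, and such members were not counted. DNAH11, for example, was highest in a cjESC library in DK20FA, at 2.09 TPM. A stricter criterion took its cut-offs from the study: over 4-fold, adjusted p under 0.01 and mean log2 level over 1.5. They were applied here to limma on log2(TPM + 1), where the study used edgeR and log2 CPM. By this criterion 10 members fell at 96 h, beside 3.30% of all genes. The median log2 fold change of the 43 members was −0.47 at 12 h and −0.79 at 96 h, where that of all genes was −0.04 and −0.08. Under median-ratio scaling or quantile normalization up to 1 member was called higher at 24 and 48 h, and 0 at 12 and 96 h. CCDC40 (5.16 and 5.04 TPM in cjESCs, 1.09 and 0.91 TPM at 96 h, −1.61, SE 0.22, adjusted p = 2.63e-07), the dynein light chain gene DNAL1 (28.66 and 32.75 TPM against 16.97 and 16.53 TPM, −0.83, SE 0.21, adjusted p = 0.00185) and RFX2 (4.9 and 4.44 TPM against 0.99 and 0.97 TPM, −1.52, SE 0.31, adjusted p = 0.000125) were among them.

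CFAP20 and DNAAF2 were not called at 96 h. CFAP20 measured 197.78 and 228.89 TPM in cjESCs and 212.14 and 232.39 TPM in BLSE at 96 h, and DNAAF2, a cytoplasmic assembly factor of dynein arms, 116.32 and 93.19 TPM against 100.63 and 86.61 TPM. For both genes the replicates of the 2 conditions overlapped. Markers of other cells moved in the same course: 7 of 7 amnion markers rose at 96 h, their summed level going from 300.19 and 492.22 TPM to 1836.52 and 1999.95 TPM. Here and below this list is GATA2, GATA3, TFAP2A, ISL1, HAND1, TBX4 and TBX3, and it does not tell amnion from mesoderm. The study ties HAND1 to mesodermal differentiation and counts TBX3 and GATA2 among WNT and BMP targets. Of 6 fibroblast markers, 2 rose and 3 fell, and their sum went from 217.96 and 252.51 TPM to 1828.32 and 1157.25 TPM. Of 9 genes of the embryonic node and its signals, where FOXJ1 is also known, 5 fell and 1 rose, and their sum went from 927.52 and 963.3 TPM to 46.07 and 52.31 TPM. Among them NODAL fell from 390.45 and 438.2 TPM to 0.24 and 0.22 TPM (−8.40, adjusted p = 7.51e-19), and TBXT was listed at 0, from 434.75 and 403.91 TPM. At 12 h 0 of the 9 were called lower and 2 were called higher, and their sum was 803.32 and 672.58 TPM, below both cjESC libraries. Their part in the results for cilia genes was not tested.

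**Figure D2:**
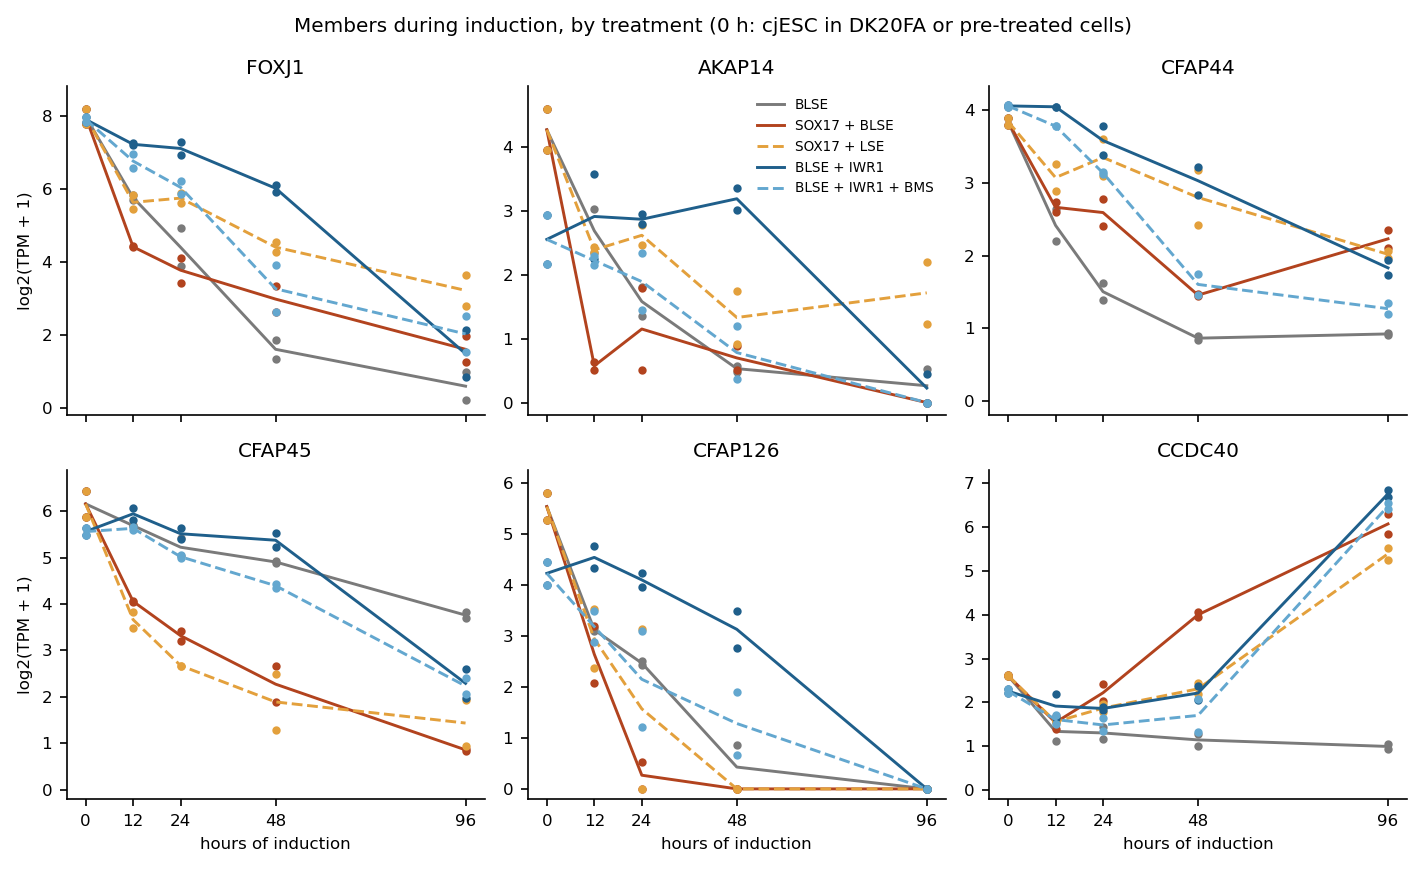
Members during induction: log2(TPM + 1) against hours of induction, 1 panel per gene and 1 colour per treatment, points for libraries and lines through the means of 2. Time 0 is cjESCs in DK20FA for the transgenic set and pre-treated cells for the other. FOXJ1 falls to 0.16 and 0.98 TPM in BLSE at 96 h, and CCDC40 reaches 77.42 and 56.24 TPM in SOX17 + BLSE at 96 h.

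With SOX17 switched on in BLSE by dexamethasone, few cilia genes differed from BLSE alone before 96 h. BLSE alone held no dexamethasone, so the part of the drug cannot be told apart from that of SOX17. At 12 h 1 member was higher and 2 were lower (2.82% and 1.53% of all genes), at 24 h 4 and 2 (9.65% and 3.84%), and at 48 h 3 and 2 (15.7% and 9.49%). At 24 h median-ratio scaling and quantile normalization moved the median of all genes by −0.11 and −0.10, and gave 3 and 2, and 4 and 2. CFAP45, a protein of the inside of the doublet microtubules, was lower at all times. It measured 15.69 and 15.62 TPM against 50.43 and 50.78 TPM at 12 h (−1.63, SE 0.31, adjusted p = 0.000606) and 2.72 and 5.3 TPM against 29.48 and 28.52 TPM at 48 h (−2.63, SE 0.31, adjusted p = 2.29e-08). At 96 h it was 0.84 and 0.79 TPM against 13.2 and 11.96 TPM (−2.90, SE 0.31, adjusted p = 3.43e-10). No replicates overlapped at these times. With a pseudocount of 0.1 the 12 h call was lost (−1.69, adjusted p = 0.0586). CFAP45 was also low without BMP4, at 13.26 and 10.27 TPM in SOX17 + LSE at 12 h.

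FOXJ1 was not called between SOX17 + BLSE and BLSE at 12 h (20.47 and 20.17 TPM against 50.64 and 55.95 TPM, −1.35, SE 0.45, adjusted p = 0.0871), though the replicates did not overlap. At 48 h the order was turned around: 9.12 and 5.18 TPM with SOX17 and 2.65 and 1.55 TPM without (1.37, SE 0.45, adjusted p = 0.0213). That call was lost without replicate 1 of SOX17 + BLSE 48 h (1.02, adjusted p = 0.226) or replicate 2 of BLSE 48 h (1.12, adjusted p = 0.189), and with a pseudocount of 0.1 in place of 1 (1.71, adjusted p = 0.136). AKAP14 at 12 h was 0.55 and 0.43 TPM with SOX17 and 7.15 and 4.06 TPM without (−2.11, SE 0.47, adjusted p = 0.00454), without overlap, and its call was lost without replicate 2 of SOX17 + BLSE 12 h (−2.05, adjusted p = 0.0523) or replicate 1 of BLSE 12 h (−1.76, adjusted p = 0.104). CFAP20, the other member called at 12 h, was 293.13 and 278.31 TPM against 210.1 and 196.69 TPM (0.49, SE 0.11, adjusted p = 0.00645), a call lost without replicate 1 of SOX17 + BLSE 12 h (0.45, adjusted p = 0.0933) or replicate 2 of BLSE 12 h (0.44, adjusted p = 0.114).

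CFAP45 at 24 h, and CFAP45 and CCDC40 at 48 h, held without each library in turn, and the remaining calls at these times did not. At 24 h those were CCDC40 (3.07 and 4.34 TPM against 1.24 and 1.73 TPM, 0.91, adjusted p = 0.00425), CFAP44 (4.29 and 5.89 TPM against 2.07 and 1.62 TPM, 1.09, adjusted p = 0.00186), CFAP77 (2.96 and 3.93 TPM against 0.94 and 0.61 TPM, 1.32, adjusted p = 0.0205), CFAP20 (257.51 and 262.19 TPM against 213.2 and 193.72 TPM, 0.35, adjusted p = 0.0332) and CFAP126 (0 and 0.45 TPM against 4.36 and 4.7 TPM, −2.20, adjusted p = 0.00543). The replicates of these genes did not overlap. Without replicate 1 of SOX17 + BLSE 24 h CFAP126 (adjusted p = 0.0782), CFAP77 (0.0557) and CFAP20 (0.117) were lost, and without its replicate 2 CCDC40 (0.099), CFAP44 (0.0562), CFAP77 (0.146) and CFAP20 (0.142). Without replicate 1 of BLSE 24 h CCDC40 was lost (0.0583), and without its replicate 2 CFAP77 (0.153) and CFAP20 (0.25). At 48 h CFAP97 (45.5 and 51.22 TPM against 32.69 and 28.95 TPM, 0.63, adjusted p = 0.0256) was lost without any 1 of the 4 libraries (adjusted p from 0.0534 to 0.173), and DNAH5 (0.85 and 0.59 TPM against 1.82 and 1.98 TPM, −0.76, adjusted p = 0.0162) without replicate 2 of SOX17 + BLSE (0.138) or either replicate of BLSE (0.0556 and 0.0994).

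CCDC40 rose in SOX17 + BLSE while FOXJ1 fell. Its product and that of CCDC39 form the ruler along the doublet that sets the spacing of inner arms and the nexin link. In SOX17 + BLSE it measured 1.65 and 2.21 TPM at 12 h, 3.07 and 4.34 TPM at 24 h, 14.33 and 15.63 TPM at 48 h, and 77.42 and 56.24 TPM at 96 h. In BLSE it stayed between 0.91 and 1.96 TPM. The difference was 2.85 (SE 0.22, adjusted p = 2.97e-12) at 48 h and 5.07 (SE 0.22, adjusted p = 3.17e-20) at 96 h, with no overlap between replicates. Against cjESCs in DK20FA (5.16 and 5.04 TPM) it was higher by 3.46 (SE 0.22, adjusted p = 2.17e-15) at 96 h. Its partner CCDC39 was at 1.78 and 1.12 TPM in SOX17 + BLSE at 96 h, below the 5.45 and 3.99 TPM of cjESCs (−1.22, SE 0.35, adjusted p = 0.00343). In the RefSeq annotation of another marmoset assembly CCDC40 overlaps LOC144582728, and whether the counting used strand is not stated in the sources used here.

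At 96 h, where sorted SOX17 + BLSE cells were set against unsorted BLSE cells, 14 of the 43 members were higher and 1 was lower, beside 36.1% and 19.5% of all genes. SOX17, dexamethasone and the sort cannot be told apart in this comparison. The split was 11 and 4 under median-ratio scaling and 10 and 5 under quantile normalization, which moved the median of all genes by −0.24 and −0.19. DNAAF4, an assembly factor, was at 23.29 and 28.74 TPM against 4.37 and 7.1 TPM (2.03, SE 0.30, adjusted p = 5e-07). TEKT3 was at 10.2 and 5.9 TPM against 2.17 and 0.66 TPM (1.94, SE 0.35, adjusted p = 1.6e-05), and DNAAF1, also an assembly factor, at 1.56 and 1.81 TPM where BLSE was listed at 0 in both libraries. These groups did not overlap. All 6 germ cell markers were higher in the sorted cells (9378.0 and 8584.86 TPM against 351.94 and 406.79 TPM in sum), and 3 of 6 fibroblast markers were lower, 1 higher (35.2 and 35.28 TPM against 1828.32 and 1157.25 TPM). Of 7 amnion markers 4 were lower and 1 higher (478.66 and 598.22 TPM against 1836.52 and 1999.95 TPM). Their part in the result was not tested.

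Against cjESCs, the sorted SOX17 + BLSE cells at 96 h had 7 members higher and 17 lower of 43, where 31.9% of all genes were higher and 21.6% lower. Median-ratio scaling and quantile normalization, which moved the median of all genes by −0.14 and −0.11, each gave 4 higher and 20 lower. FOXJ1 was at 1.39 and 2.89 TPM (−6.37, SE 0.45, adjusted p = 2.11e-14), AKAP14, CFAP126 and CFAP73 were listed at 0 in both libraries, and CFAP45 fell from 57.45 and 86.15 TPM to 0.84 and 0.79 TPM (−5.30, SE 0.31, adjusted p = 1.03e-16). Every one of these lay below both cjESC libraries. DNAAF4 rose by 1.45 (SE 0.30, adjusted p = 0.000108, from 8.45 and 9.21 TPM) and the inner arm heavy chain DNAH1 by 0.98 (SE 0.27, adjusted p = 0.00207, from 1.34 and 1.9 TPM to 3.69 and 4.65 TPM). TEKT3 rose by 1.24 (SE 0.35, adjusted p = 0.00331), a call lost without replicate 1 of SOX17 + BLSE 96 h (0.89, adjusted p = 0.088) or replicate 1 of the cjESCs (0.98, adjusted p = 0.0653). All 6 germ cell markers were higher and all 6 fibroblast markers lower in these sorted cells, and their part in the result was not tested.

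The comparison of SOX17 + BLSE with SOX17 + LSE asks what BMP4 adds. FOXJ1 was lower with BMP4 at every time, with no overlap of replicates: 20.47 and 20.17 TPM against 55.76 and 42.31 TPM at 12 h, 9.82 and 16.29 TPM against 57.69 and 48.15 TPM at 24 h, 9.12 and 5.18 TPM against 22.38 and 18.21 TPM at 48 h, and 1.39 and 2.89 TPM against 5.96 and 11.5 TPM at 96 h. It was not called at 12 h (−1.22, SE 0.45, adjusted p = 0.492), and was called at 24 h (−1.97, SE 0.45, adjusted p = 0.00473), 48 h (−1.42, SE 0.45, adjusted p = 0.0289) and 96 h (−1.61, SE 0.45, adjusted p = 0.0129). Each of these calls rested on single libraries. The 24 h call was lost without replicate 1 of SOX17 + BLSE (−1.64, adjusted p = 0.129) or of SOX17 + LSE (−1.85, adjusted p = 0.0811). The 48 h call was lost without replicate 2 of SOX17 + BLSE (−1.07, adjusted p = 0.287), replicate 1 of SOX17 + LSE (−1.28, adjusted p = 0.184) or its replicate 2 (−1.56, adjusted p = 0.0805), and the 96 h call without replicate 1 of SOX17 + BLSE (−1.26, adjusted p = 0.171) or replicate 2 of SOX17 + LSE (−1.19, adjusted p = 0.206). All 3 were lost with a pseudocount of 0.1 (adjusted p = 0.216, 0.272 and 0.121), and the 48 h call also without the filter (0.0506).

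Few other members were called. Counting both directions, 0 of 43 were called at 12 h (0.473% of all genes), 2 at 24 h (4.87%), 3 at 48 h (13.3%) and 4 at 96 h (12.8%). At 12 h 10 members had an unadjusted p under 0.05, but the share of all genes at that threshold was not taken, so the count cannot be judged. CCDC40 was higher with BMP4 at 48 h (14.33 and 15.63 TPM against 3.54 and 4.42 TPM, 1.69, SE 0.22, adjusted p = 7.49e-07), and CFAP44 was lower (1.77 and 1.72 TPM against 4.36 and 8.07 TPM, −1.34, SE 0.25, adjusted p = 0.000129), both without overlap. The other calls were the radial spoke gene RSPH1 at 24 h, listed at 0 against 1.22 and 0.98 TPM, and at 96 h AKAP14, listed at 0 against 1.34 and 3.6 TPM, CCDC40 (77.42 and 56.24 TPM against 44.91 and 37.09 TPM, 0.68, SE 0.22, adjusted p = 0.0386) and CFAP100 (2.06 and 1.59 TPM against 1.01 and 0 TPM, 0.99, SE 0.32, adjusted p = 0.0348). These 4 were lost in some fits without 1 library. RSPH1 was lost without any 1 of the 4 libraries (adjusted p from 0.0975 to 0.224). Of the libraries at 96 h, AKAP14 was lost without either replicate of SOX17 + BLSE (adjusted p = 0.0657 and 0.0646) or replicate 2 of SOX17 + LSE (0.215), CCDC40 without replicate 1 of SOX17 + BLSE (0.371) or either replicate of SOX17 + LSE (0.0619 and 0.268), and CFAP100 without either replicate of SOX17 + BLSE (0.197 and 0.0772) or replicate 2 of SOX17 + LSE (0.515). Amnion markers were higher with BMP4 in 7 of 7 genes at 48 h (1990.07 and 1903.27 TPM against 791.36 and 634.36 TPM in sum), and 3 of 9 node genes were lower and 0 higher (276.21 and 301.76 TPM against 849.63 and 952.78 TPM). Their part in the result was not tested.

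**Figure D3:**
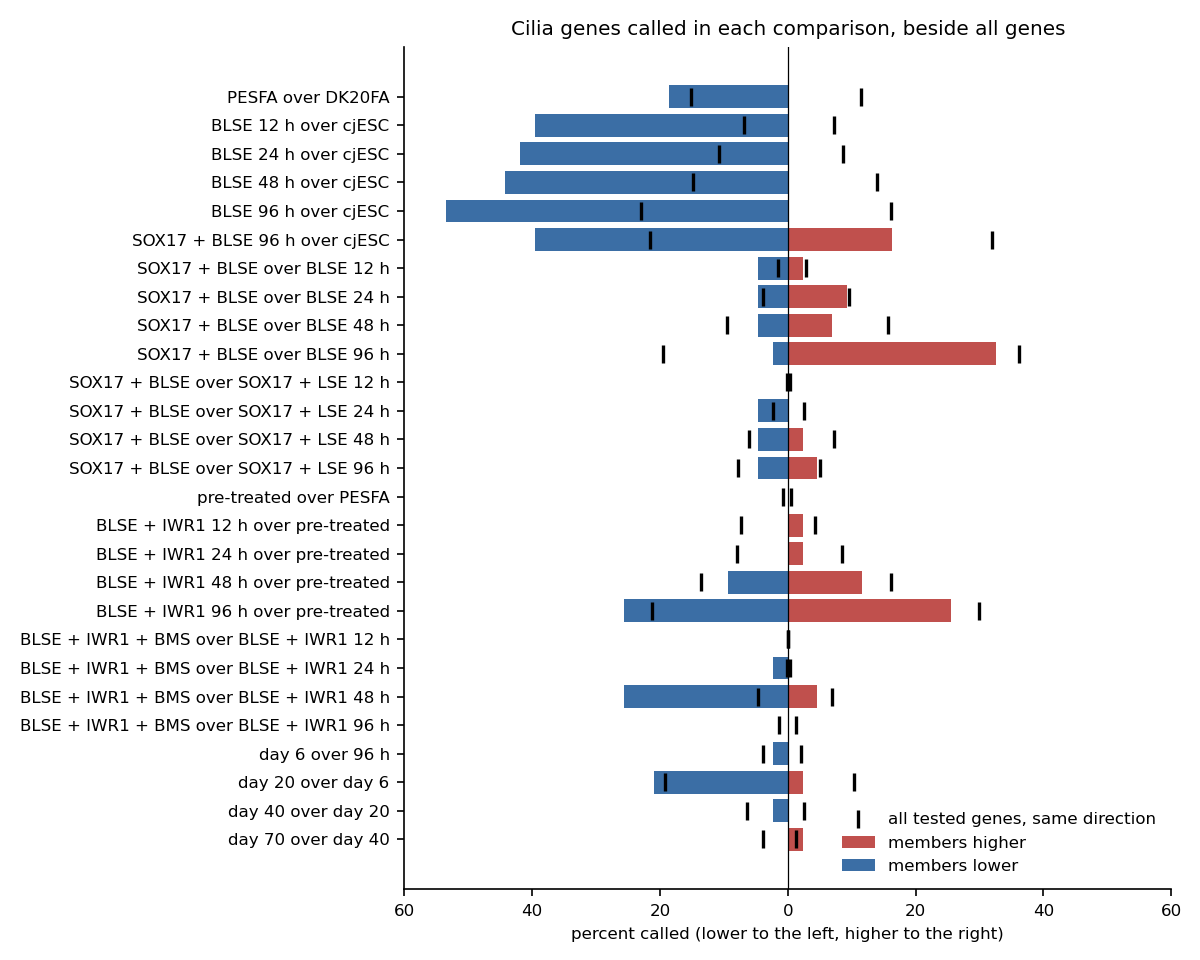
Percent of the 43 members tested (bars, blue for lower and red for higher) and of all 11197 genes (black ticks) called lower (left) or higher (right) in each of the 27 comparisons, at an adjusted p under 0.05. In BLSE at 96 h 23 of 43 members were lower, beside 23.0% of all genes.

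In the set without transgenes, cjESCs in PESFA had 8 of 43 members (18.6%) lower than cjESCs in DK20FA and 0 higher. The share lower was near the 15.2% of all genes, of which 11.5% were higher. Without any 1 of the 4 libraries between 3 and 5 members were called. CFAP126 was at 8.65 and 9.22 TPM against 37.7 and 54.51 TPM (−2.22, SE 0.55, adjusted p = 0.00247), and DNAAF2 at 66.28 and 57.7 TPM against 116.32 and 93.19 TPM (−0.74, SE 0.19, adjusted p = 0.00285). Neither overlapped. The CFAP126 call was lost with a pseudocount of 0.1 (−2.33, adjusted p = 0.109). FOXJ1 was not called (−0.38, SE 0.45, adjusted p = 0.582). Median-ratio scaling gave 1 higher and 6 lower members. Of 6 fibroblast markers 5 were higher in PESFA, with sums of 2921.93 and 1675.85 TPM against 217.96 and 252.51 TPM, and their part in the result was not tested. Pre-treatment against PESFA called 0 of 43 members in limma (1.13% of all genes), 1 of them at an unadjusted p under 0.05. No share of all genes was taken at that unadjusted threshold.

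In BLSE + IWR1, FOXJ1 was not called lower than in pre-treated cells until 48 h. It was at 145.02 and 151.2 TPM at 12 h, 121.78 and 153.7 TPM at 24 h, 59.59 and 68.27 TPM at 48 h, and 0.79 and 3.39 TPM at 96 h. All 8 libraries lay below both libraries of pre-treated cells. Pre-treated cells were sorted for TRA-1-60 and those at 12 to 48 h were not, so culture and sorting cannot be told apart. The change against pre-treated cells was −0.68 (SE 0.45, adjusted p = 0.389) at 12 h, −0.79 (SE 0.45, adjusted p = 0.257) at 24 h, −1.88 (SE 0.45, adjusted p = 0.00141) at 48 h and −6.41 (SE 0.45, adjusted p = 2.53e-14) at 96 h. With a pseudocount of 0.1 the 48 h call was lost (adjusted p = 0.0833). The BLSE and BLSE + IWR1 courses differ in transgenes, medium and pre-treatment as well as in IWR1, so their values stand side by side with no test.

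CFAP43, a partner of CFAP44 in tethering an inner dynein arm, rose in the same course. It was at 1.55 and 1.41 TPM in pre-treated cells and at 4.91 and 6.13 TPM in BLSE + IWR1 at 24 h (1.39, SE 0.28, adjusted p = 0.000409), without overlap. At 12 h it was at 3.44 and 4.17 TPM (0.95, SE 0.28, adjusted p = 0.0204), a call lost without replicate 2 of BLSE + IWR1 12 h (0.84, adjusted p = 0.174) or without replicate 1 or 2 of the pre-treated cells (0.99, adjusted p = 0.0629, and 0.91, adjusted p = 0.151). CFAP43 was the 1 member called at 12 h (4.23% of all genes rose) and the 1 called at 24 h (8.45%).

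At 48 h of BLSE + IWR1 5 members rose and 4 fell, beside 16.1% and 13.6% of all genes. CFAP44 fell from 15.54 and 15.88 TPM to 6.15 and 8.36 TPM (−1.03, SE 0.25, adjusted p = 0.00137), and the outer arm heavy chain DNAH5 from 3.61 and 4.35 TPM to 0.84 and 1.63 TPM (−1.17, SE 0.24, adjusted p = 0.000219), without overlap. CFAP73 fell from 3.32 and 5.85 TPM to 0.69 and 2.36 TPM (−1.19, SE 0.31, adjusted p = 0.00288), a call lost without replicate 1 of BLSE + IWR1 48 h (−0.70, adjusted p = 0.139) or replicate 2 of the pre-treated cells (−0.86, adjusted p = 0.102). FOXJ1 was the other. The rises rested on replicate 2 of BLSE + IWR1 48 h. Levels there were not higher in members only: over all tested genes the mean log2(TPM + 1) was 3.74 in replicate 1 and 4.04 in replicate 2. In that library the inner arm intermediate chain DNAI3 was at 15.05 TPM, against 7.84 TPM in replicate 1 and 4.67 and 3.72 TPM in pre-treated cells (1.20, SE 0.27, adjusted p = 0.000852), and without it the value was 0.77 (adjusted p = 0.0622). CFAP43, CFAP47, DNAH1 and the radial spoke gene RSPH3 lost their calls without it too (adjusted p = 0.0556, 0.216, 0.477 and 0.575). DNAH1 was also lost without replicate 2 of the pre-treated cells (0.154), and RSPH3 without either of their replicates (0.179 and 0.107). Of 6 fibroblast markers 5 were lower than in pre-treated cells (103.47 and 115.95 TPM against 2462.44 and 4687.98 TPM in sum), and of 7 amnion markers 6 were higher. Their part in the result was not tested.

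At 96 h of BLSE + IWR1, in sorted cells, 11 members were higher and 11 lower than in pre-treated cells, beside 29.9% and 21.3% of all genes. Both directions together, 51.2% of the members were called, the same share as of all genes (51.2%). The split was 8 and 13 under median-ratio scaling, which moved the median of all genes by −0.18, and 11 and 13 under quantile normalization. CCDC40 was again the member with the largest rise, from 3.96 and 3.62 TPM to 101.05 and 112.73 TPM (4.49, SE 0.22, adjusted p = 2.74e-18). DNAAF4 rose from 8.22 and 5.73 TPM to 16.83 and 21.3 TPM (1.34, SE 0.30, adjusted p = 0.000321), DNAH1 from 1.87 and 1.16 TPM to 4.07 and 6.69 TPM (1.33, SE 0.27, adjusted p = 7.49e-05) and DNAI3 from 4.67 and 3.72 TPM to 10.05 and 13.85 TPM (1.31, SE 0.27, adjusted p = 0.000136). CFAP126 and CFAP73 were listed at 0 in both libraries, from 15.02 and 20.85 TPM and from 3.32 and 5.85 TPM, and CFAP45 fell to 2.96 and 5.06 TPM from 43.84 and 48.65 TPM (−3.27, SE 0.31, adjusted p = 3.58e-11). No replicates of the groups overlapped in these genes. Fibroblast markers were lower in 5 of 6 genes (60.68 and 76.6 TPM against 2462.44 and 4687.98 TPM in sum), and their part in the result was not tested.

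BMS493 was added to BLSE + IWR1 to see the effect of blocking retinoic acid signaling, and at 48 h cilia genes were lower with it. FOXJ1 was at 13.99 and 5.17 TPM with BMS493 and at 59.59 and 68.27 TPM without (−2.75, SE 0.45, adjusted p = 7.73e-05). AKAP14 was at 1.29 and 0.29 TPM against 9.21 and 7.09 TPM (−2.40, SE 0.47, adjusted p = 0.000774), and CFAP44 at 2.36 and 1.75 TPM against 6.15 and 8.36 TPM (−1.43, SE 0.25, adjusted p = 0.00015). The groups did not overlap in any of the 3 genes, and the 3 calls held without each of the 4 libraries. With only the 4 libraries of this comparison in the fit 0 members were called. The libraries without BMS493 were uneven over all tested genes, with a mean log2(TPM + 1) of 3.74 and 4.04. With BMS493 the means were 3.92 and 3.91.

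In all, 11 of 43 members were lower with BMS493 at 48 h and 2 were higher, beside 4.63% and 6.87% of all genes. Members called were 6 without either replicate of BLSE + IWR1 + BMS 48 h and 7 without replicate 2 of BLSE + IWR1 48 h. The median log2 fold change was −0.52 for the members and 0.03 for all genes. TEKT2 was at 2.87 and 3.31 TPM against 8.38 and 14.08 TPM (−1.54, SE 0.42, adjusted p = 0.0144), a call lost without replicate 1 or 2 of BLSE + IWR1 + BMS 48 h (adjusted p = 0.101 and 0.0549) or replicate 2 of BLSE + IWR1 48 h (0.106). CFAP126 was at 2.72 and 0.59 TPM against 5.81 and 10.23 TPM (−1.85, SE 0.55, adjusted p = 0.025), a call lost without replicate 2 of either condition (adjusted p = 0.283 and 0.132). The 2 higher members were CFAP97 (34.34 and 34.79 TPM against 14.62 and 28.09 TPM, 0.74, SE 0.21, adjusted p = 0.0203) and CFAP58 (5.66 and 1.13 TPM against 0.46 and 0.93 TPM, 1.17, SE 0.37, adjusted p = 0.0337). CFAP97 was lost without replicate 1 or 2 of BLSE + IWR1 + BMS 48 h (adjusted p = 0.0986 and 0.0932) or replicate 1 of BLSE + IWR1 48 h (0.482), and CFAP58 without replicate 1 of either condition (0.689 and 0.193). Of 7 amnion markers 0 were called in this comparison (1944.58 and 2555.23 TPM against 1693.67 and 1772.58 TPM in sum). Of 6 germ cell markers 2 were higher and 2 lower (3175.93 and 3658.98 TPM against 5461.67 and 6254.48 TPM). Of 6 fibroblast markers 1 was higher and 1 lower (92.54 and 287.44 TPM against 103.47 and 115.95 TPM). Of 9 node genes 1 was higher and 1 lower (736.15 and 233.67 TPM against 566.65 and 649.71 TPM). Their part in the result was not tested.

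At the other times BMS493 moved few members past the test. At 12 h 0 of 43 were called (0.125% of all genes), at 24 h 1 was lower (0.134%) and at 96 h 0 were called (2.66%), with 4 and 10 members at an unadjusted p under 0.05 at 12 and 96 h. The share of all genes at that unadjusted threshold was not taken, so these 4 and 10 cannot be judged. FOXJ1 was at 122.23 and 94.53 TPM against 145.02 and 151.2 TPM at 12 h (−0.46, SE 0.45, adjusted p = 0.82) and at 73.85 and 56.96 TPM against 121.78 and 153.7 TPM at 24 h (−1.07, SE 0.45, adjusted p = 0.6). The replicates did not overlap at 12 and 24 h, and at 96 h they did (4.79 and 1.88 TPM against 0.79 and 3.39 TPM). The 1 member called at 24 h was CFAP73 (1.05 and 0.24 TPM against 2.66 and 3.55 TPM, −1.36, SE 0.31, adjusted p = 0.0298), lost without any 1 of the 4 libraries (adjusted p from 0.064 to 0.881). The difference between the effects of BMS493 on FOXJ1 at 48 h and at 12 h was −2.29 (SE 0.64, adjusted p = 0.135).

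**Figure D4:**
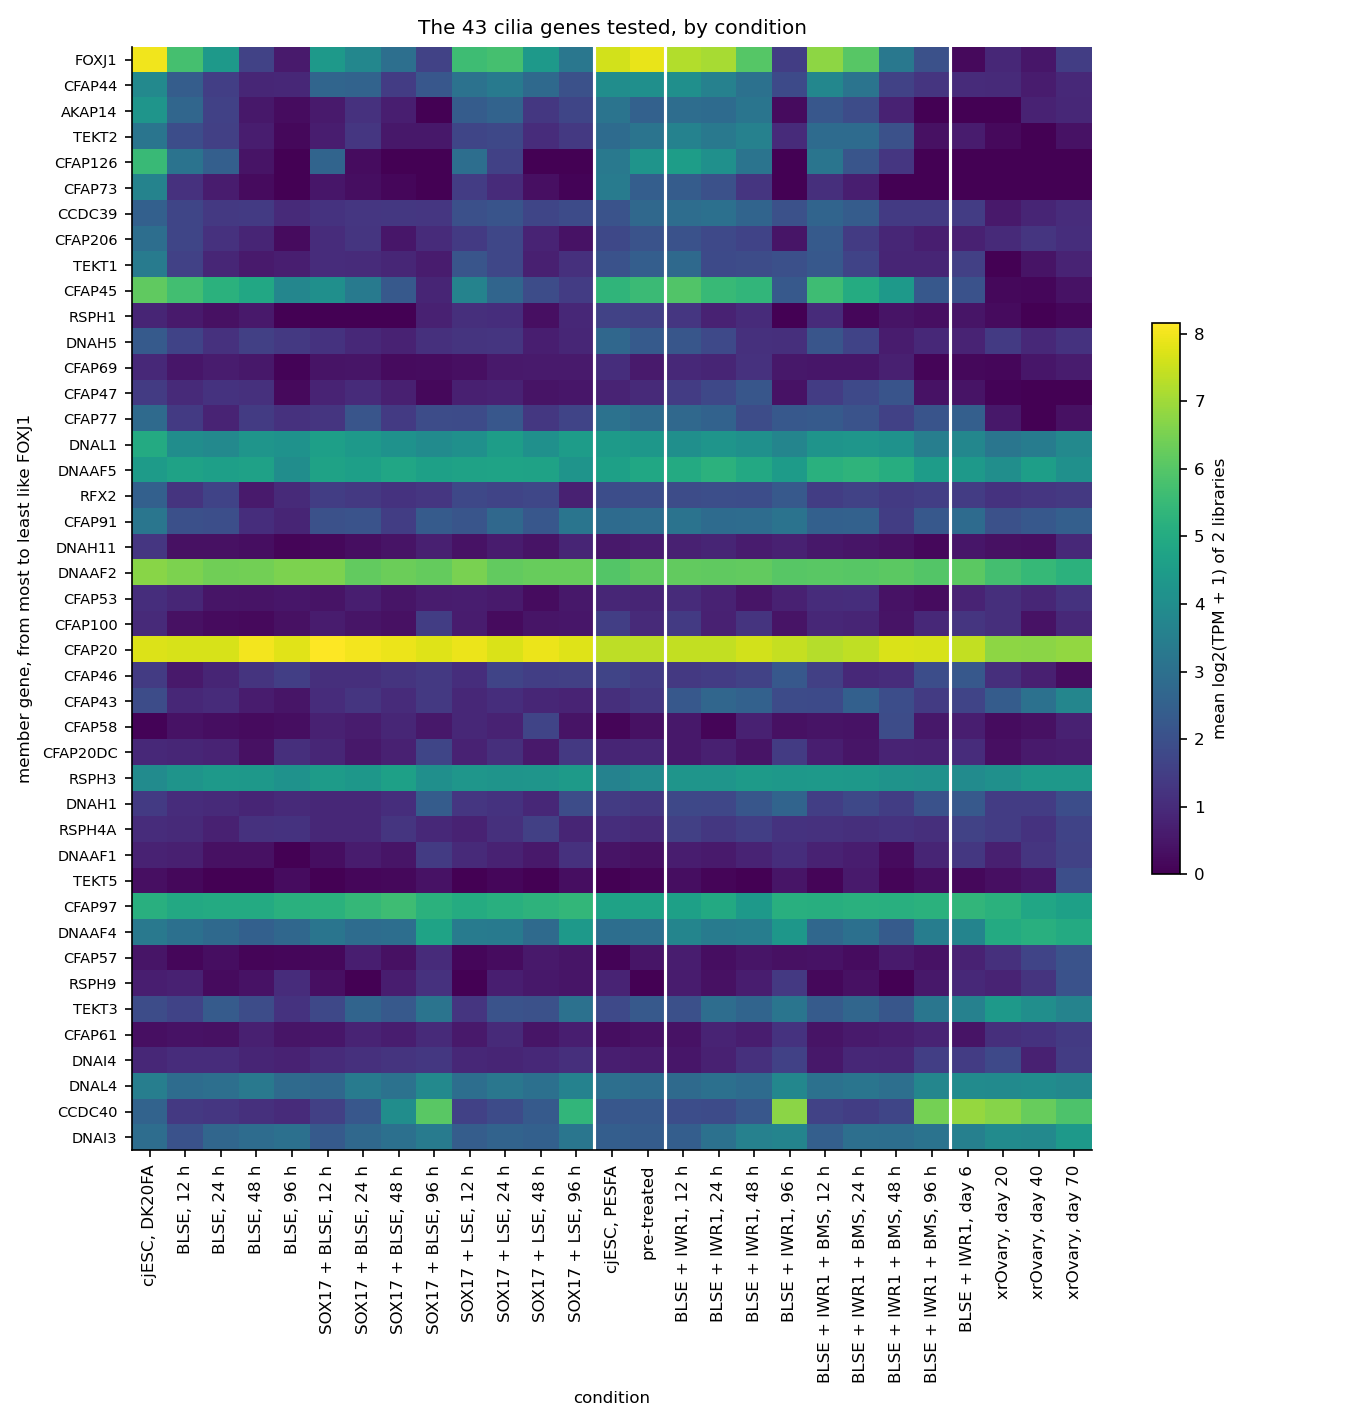
Mean log2(TPM + 1) of 2 libraries for the 43 members tested (rows, ordered from most to least like FOXJ1 over the condition means) in the 27 conditions (columns). CFAP44, AKAP14, TEKT2, CFAP126 and CFAP73 are high where FOXJ1 is high, and CCDC40 and DNAI3, in the last rows, are highest in PGCLCs and xrOvaries.

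The late stages ask which cilia genes germ cells carry on after induction. From 96 h to day 6 1 member fell (3.80% of all genes), from day 6 to day 20 1 rose and 9 fell (10.4% and 19.2%), from day 20 to day 40 1 fell (6.45%) and from day 40 to day 70 1 rose (1.23%). The 1 that rose from day 40 to day 70 was TEKT5, which passed the filter through its day 70 values only. CCDC40 was still high but lower on day 70 than on day 6, at 123.18 and 109.45 TPM on day 6, 93.2 and 108.81 TPM on day 20, 75.57 and 75.94 TPM on day 40 and 53.35 and 62.78 TPM on day 70. It was called in none of these 4 steps, and day 70 against day 6, where the replicates did not overlap, was not tested. Replicate 2 of day 20 had the fewest genes above 0 (10146 of 14812) and 30 of the 66 members above 0, against 44 in replicate 1. Without that library 1 member rose and 6 fell from day 6 to day 20, and without replicate 2 of day 6 6 members were called.

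From day 6 to day 20 the split of 1 and 9 was 4 and 8 under median-ratio scaling and 5 and 6 under quantile normalization. Both directions together, 23.3% of the members were called, below the 29.7% of all genes. DNAAF4 rose from 9.57 and 14.8 TPM to 38.02 and 24.86 TPM (1.3, SE 0.30, adjusted p = 0.000986) and was at 30.25 and 31.82 TPM on day 70. CFAP20 fell from 172.64 and 162.8 TPM to 90.66 and 127.54 TPM (−0.64, SE 0.11, adjusted p = 3.7e-05). CFAP45 fell from 2.09 and 4.58 TPM to 0.28 and 0 TPM (−1.88, SE 0.31, adjusted p = 8.4e-06), CFAP77 from 3.22 and 6.35 TPM to 1.03 and 0 TPM (−1.97, SE 0.40, adjusted p = 0.000178), and TEKT1 was listed at 0 on day 20, from 1.67 and 2.26 TPM. The groups did not overlap. Markers of gonadal somatic cells summed to at most 4.53 TPM and fibroblast markers to at most 8.68 TPM in the 6 xrOvary libraries. The gonadal somatic cells were of mouse and reads were aligned to the marmoset genome, so these sums cannot measure carry-over of those cells.

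At each of the other steps 1 member was called. CFAP44 was at 0.82 and 1.24 TPM on day 6 against 2.31 and 2.83 TPM at 96 h (−0.82, SE 0.25, adjusted p = 0.0393), and the inner arm gene DNAI4 at 0.53 and 0.86 TPM on day 40 against 2.79 and 2.22 TPM on day 20 (−1.05, SE 0.32, adjusted p = 0.0297). Each was lost without any 1 of its 4 libraries (adjusted p from 0.0673 to 0.31 and from 0.0773 to 0.213). From day 20 to day 40 the split of 0 higher and 1 lower was 2 and 1 under median-ratio scaling and 3 and 1 under quantile normalization. TEKT5 was at 3.49 and 2.42 TPM on day 70 against 0.2 and 0.66 TPM on day 40 (1.47, SE 0.27, adjusted p = 0.000285), and did not exceed 0.87 TPM in any library outside day 70. It passed the filter through its day 70 values only, so its call was not independent of the filter and is no support for a rise. That call held without each of the 4 libraries and was lost with a pseudocount of 0.1 (adjusted p = 0.18). CFAP43 reached 12.81 and 12.2 TPM on day 70, its highest in the series, from 9.88 and 5.39 TPM on day 40.

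**Figure D5:**
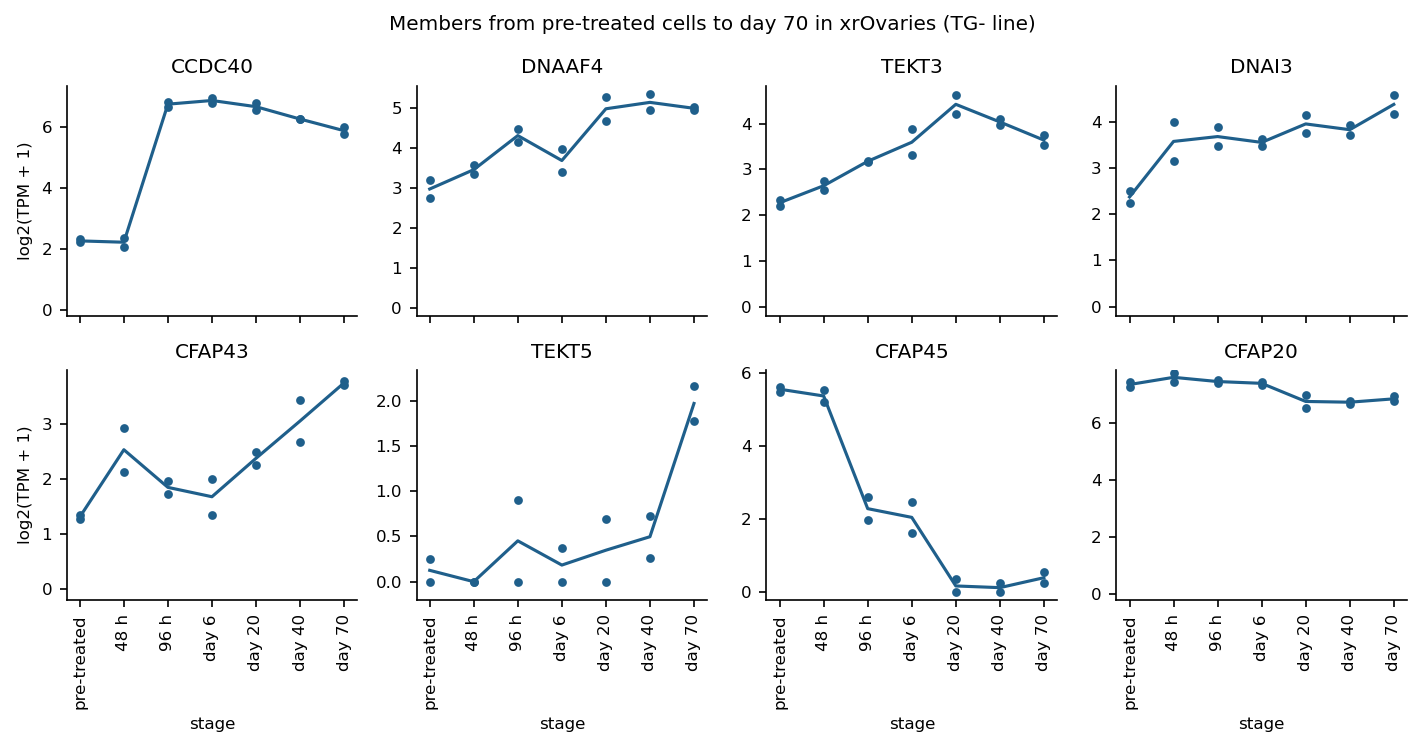
Members from pre-treated cells to day 70 in xrOvaries, in the set without transgenes: log2(TPM + 1), points for libraries and lines through the means of 2. CCDC40 stays between 53.35 and 123.18 TPM from day 6 to day 70, and TEKT5 is above 1 TPM on day 70 only.

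The members differed in how closely they followed FOXJ1. Over the 27 condition means of log2(TPM + 1), which share time courses and cjESC libraries, Pearson's r to FOXJ1 was 0.94 for CFAP44, 0.91 for AKAP14, 0.90 for TEKT2, 0.90 for CFAP126 and 0.86 for CFAP73. Of the 42 other members tested, 7 had r over 0.8, beside 2.66% of all 11196 genes, and 19 had r below 0. CCDC40 (−0.65) and DNAI3 (−0.66) lay at the far end. The genes outside the list with the highest r were SOX2 (0.97), the pluripotency and neural factor, SNTB1 (0.97), COL5A3 (0.96), SEPHS1 (0.95) and the histamine receptor gene HRH3 (0.95). SOX2 measured 191.18 and 200.36 TPM in cjESCs in DK20FA, 2.08 and 1.01 TPM in BLSE at 96 h, 41.44 and 68.37 TPM in BLSE + IWR1 at 48 h, and 14.99 and 15.76 TPM with BMS493 at 48 h.

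Other cilia genes that the symbol rule leaves out were read from fixed lists. Of 25 further motile cilia genes tested, 14 were lower and 1 higher in BLSE at 96 h than in cjESCs, beside 23.0% and 16.2% of all genes. In SOX17 + BLSE against BLSE at 96 h 12 were higher and 1 lower, beside 36.1% and 19.5%, and with BMS493 at 48 h 6 were lower and 0 higher, beside 4.63% and 6.87%. The inner arm light chain gene DNALI1 was at 37.08 and 43.57 TPM in cjESCs in DK20FA and 1.13 and 0.52 TPM in BLSE at 96 h (−4.52, adjusted p = 8.43e-15), and at 4.63 and 1.94 TPM with BMS493 against 12.04 and 22.38 TPM without at 48 h (−2.10, adjusted p = 1.53e-05). The central pair gene SPAG6 was at 146.66 and 156.06 TPM and at 9.77 and 13.33 TPM in the first of these comparisons (−3.62, adjusted p = 2.85e-18). In both genes the groups did not overlap. TPPP3, a tubulin polymerization promoting protein, measured 8.04 and 9.68 TPM in BLSE at 96 h. With SOX17 it measured 153.02 and 156.9 TPM, and 344.37 and 348.58 TPM on day 70.

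Genes of intraflagellar transport and the BBSome, are used by all cilia. Of 28 tested, 6 were lower and 0 higher in BLSE at 96 h than in cjESCs, beside 23.0% of all genes lower, and 11 were higher and 2 lower in SOX17 + BLSE than in BLSE at 96 h, a share higher near the 36.1% of all genes. With BMS493 at 48 h 1 was lower and 0 were higher, beside 4.63% of all genes lower. Of 10 regulators of multiciliated cells tested, 1 was lower in BLSE at 96 h, beside 23.0% of all genes: MYB (−3.76, adjusted p = 9.26e-13). In SOX17 + BLSE against BLSE at 96 h 4 were higher, MYB (2.60, adjusted p = 3.63e-09) and FOXN4 (1.78, adjusted p = 3.64e-05) by the most, a share near the 36.1% of all genes.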

How the data were processed

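Poly(A) RNA of sorted or unsorted cells was sequenced from directional libraries, single-end, by the authors. They aligned reads with STAR to Callithrix_jacchus_cj1700_1.1, kept alignments to gene loci with a mapping quality (MAPQ) over 1, and deposited TPM values from RSEM for genes shared with human, to 2 decimals. Read counts were not used here, and TPM keep no depth, so the count test of the study was replaced by limma 3.58.1 (R 4.3.3). Whether RSEM used strand is not given in the sources used here.

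log2(TPM + 1) was fitted over all 54 libraries with 1 mean per condition, an intensity trend and 27 residual degrees of freedom, for 11197 genes (those whose log2 value reached 1.5 somewhere). p-values are two-sided, Benjamini-Hochberg adjusted over those genes, and a gene is called at an adjusted p under 0.05. With 2 replicates per condition, all conditions share 1 estimate of the spread. Groups come from the sample labels. The members, lists and tests were chosen with earlier results of these data known.

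Named genes are FOXJ1, AKAP14, RFX2, RFX3, CCDC39, CCDC40, the most expressed member of each family, up to 5 called members with the largest rise and fall in each comparison, the 5 members and 5 other genes most like FOXJ1, and up to 3 called genes of each other list per comparison. Replicates correlated at 0.977 to 0.994, and no 2 libraries were identical. On simulated data for BLSE 96 h over cjESC with 11197 genes, the fit recovered 76 of 100 genes changed 2-fold and 100 of 100 changed 8-fold, and called 13 of 10997 unchanged genes. All 66 member gene IDs were matched in a RefSeq table of another assembly (calJac240_pri), where 40 overlap another gene and CFAP94 is named DNAI7. That table gave names and overlaps only, and no coordinates or sequences were read. Figures were drawn with Python 3.11.15 and matplotlib 3.10.9. Alternatives were a pseudocount of 0.1, no filter, only the libraries compared, a replicate block, median-ratio scaling, quantile normalization and leaving out each replicate.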

Additional observations from a re-analysis of the deposited data

Results flagged for a closer look

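The difference between the effects of SOX17 in BLSE at 12 and 48 h was itself tested for FOXJ1 and AKAP14. It was called for both genes with all libraries in the fit, and both calls were lost in some fits without 1 library. SOX17 and dexamethasone cannot be told apart here. For FOXJ1 the effect at 48 h minus that at 12 h was 2.72 on the log2 scale (SE 0.64, adjusted p = 0.00672, limma with Benjamini-Hochberg adjustment): at 12 h the libraries with SOX17 lay below those without (20.47 and 20.17 TPM against 50.64 and 55.95 TPM), and at 48 h above (9.12 and 5.18 TPM against 2.65 and 1.55 TPM). For AKAP14 it was 2.28 (SE 0.67, adjusted p = 0.0366), from 0.55 and 0.43 TPM against 7.15 and 4.06 TPM at 12 h to 0.43 and 0.84 TPM against 0.4 and 0.49 TPM at 48 h, where the replicates overlapped. At 48 h AKAP14 was near the floor with and without SOX17, so a lower level with SOX17 could not show there. The FOXJ1 difference was lost without replicate 1 of SOX17 + BLSE 48 h (2.37, adjusted p = 0.0539) or replicate 2 of BLSE 48 h (2.46, adjusted p = 0.0568), and the AKAP14 difference without 7 of the 8 libraries, 1 at a time. Of the 6 such tests (SOX17, BMP4 and BMS493, each for both genes) these 2 passed.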

How the results depend on the processing

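Over 102 called pairs of a named gene and a comparison, 821 of 1020 recomputed values kept their direction and call, 199 kept the direction and lost the call, and 0 reversed. Fits on only the libraries compared lost the most, and called 0 members in PESFA over DK20FA, BLSE 12 and 24 h, SOX17 + BLSE over BLSE 12 and 24 h, SOX17 + BLSE over SOX17 + LSE 24 and 96 h, BLSE + IWR1 12 and 24 h, BMS 24 and 48 h, day 6, day 40 and day 70, and 1 in SOX17 + BLSE over SOX17 + LSE 48 h, BLSE + IWR1 48 h and day 20; these fits have fewer residual degrees of freedom. With a pseudocount of 0.1 the count was 3 in PESFA, 10 in BLSE 12 h, 1 in SOX17 + BLSE over BLSE 12 h and over SOX17 + LSE 24 and 96 h, 0 in BLSE + IWR1 12 h, BMS 24 h and day 70, 7 in BMS 48 h and 2 on day 6. Without the filter it was 2 in BLSE + IWR1 12 h, 3 in BLSE + IWR1 24 h, 1 in BMS 96 h, 2 on day 6 and 2 on day 40. Quantile normalization gave 0 on day 6 and 4 on day 40, and median-ratio scaling 3 on day 40. The cause of these moves was not tested. Leaving out 1 library at a time, members called ranged from 3 to 5 in PESFA (8 with all libraries), 9 to 14, 13 to 16, 15 to 17 and 18 to 22 in BLSE at 12, 24, 48 and 96 h, and 18 to 22 in SOX17 + BLSE 96 h over cjESCs. They ranged from 2 to 2, 2 to 7, 2 to 3 and 13 to 15 for SOX17 + BLSE over BLSE at 12, 24, 48 and 96 h, and 0 to 0, 0 to 3, 2 to 4 and 0 to 4 over SOX17 + LSE. They ranged from 0 to 0 for pre-treatment, 0 to 1, 1 to 2, 6 to 11 and 17 to 21 in BLSE + IWR1, and 0 to 0, 0 to 0, 6 to 14 and 0 to 1 for BMS493. They ranged from 0 to 3 on day 6, 6 to 13 on day 20, 0 to 2 on day 40 and 1 to 1 on day 70. The SOX17 effect at 48 h minus 12 h was 3.10 for FOXJ1 (adjusted p = 0.143) and 3.60 for AKAP14 (0.141) with a pseudocount of 0.1, and for AKAP14 2.28 without the filter (0.0612) and 2.27 with quantile normalization (0.0629). Leaving out 1 library it ranged from 2.37 to 3.08 for FOXJ1 and 1.93 to 2.62 for AKAP14. The same difference for BMP4 was −0.20 for FOXJ1 (−0.56 to 0.15, reversed at 0.15 without replicate 2 of SOX17 + BLSE 48 h) and 1.18 for AKAP14 (0.77 to 1.59). For BMS493 it was −2.29 for FOXJ1 (−2.93 to −1.65) and −1.71 for AKAP14 (−2.38 to −1.05), and FOXJ1 passed without replicate 1 of BMS 48 h (−2.93, adjusted p = 0.0336). Same-numbered replicates correlated at −0.09 to 0.29 in their deviations, over 0.1 in 6 of 27 comparisons; no label ties a number to a batch and each comparison has 2 pairs, so the number was not taken as a pairing. With the replicate block the count of members called moved in 1 comparison, from 10 to 9 on day 20, where CCDC39 was lost (−0.90, adjusted p = 0.051).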
